A study of Mus musculus with 16 samples.

Results

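The haematopoietic stem cell identity genes are 36 genes whose products mark blood stem cells or hold their state. They comprise 13 surface and signalling receptors, 12 transcription and chromatin regulators and 11 other marker genes, among them a ligand, a transporter, enzymes and adaptors. The 36 were picked by symbol among the 30141 mouse gene identifiers of the count files. All 36 were found, and all 36 passed the filter on low counts that left 18341 genes to test.

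Blood stem cells are rare bone marrow cells that renew themselves and give rise to every blood lineage. Transcription factors such as MECOM, GATA2, RUNX1, ERG, TAL1 and LMO2 hold this state together, and surface proteins such as CD150 (Slamf1) and EPCR (Procr) are used to sort the cells, which lower most of these transcripts as they commit to a lineage. DNMT3A methylates DNA de novo, R882H is its hotspot mutation in clonal haematopoiesis and acute myeloid leukaemia, and azacitidine is a cytidine analogue that traps DNA methyltransferases once it is built into DNA.

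RNA was sequenced from LSK cells, which are lineage-negative, Sca1-positive, Kit-positive bone marrow cells and hold stem cells together with many more early progenitors. There were 5 libraries of R882H with azacitidine, 4 of R882H with NaCl, 3 of WT with azacitidine and 4 of WT with NaCl. R882H cells carried a human DNMT3A R882H knock-in allele behind a removable stop cassette and kept mouse WT Dnmt3a. WT cells expressed mouse WT Dnmt3a alone. The stop cassette was removed by Mx1-Cre, an interferon-inducible Cre that is not limited to blood cells, after poly(I:C), which the labels give for donors with and without Mx1-Cre. They describe 2 poly(I:C) schedules and tie neither to a library. Donor marrow was transplanted together with an equal part of CD45.1 WT marrow into CD45.1 recipients, which were then given azacitidine (2.5 mg per kg) or, as controls, 0.9% NaCl. It is not stated if the sort kept only donor cells, nor if each library is 1 animal. Sca1 is the product of Ly6a and Kit that of Kit, so the levels of these genes were set in part by the gate and are no finding.

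Totals ran between 35860445 and 56012766 counts per library. Mouse Dnmt3a stood between 62.9 and 146 CPM (the count as a share of the TMM-scaled library total) and does not by itself check the human allele. A few libraries stood apart. T and NK cell genes summed to 685 CPM in library 1 of R882H with NaCl, against 314 to 331 CPM in the others of that group. This sum was high for its group only, since WT libraries reached 708 CPM with NaCl and 905 CPM with azacitidine. Nkg7, with a median of 387 CPM over the 16 libraries, made up much of it. Erythroid and megakaryocyte genes summed to 10660 CPM in its library 2, against 1925 to 4194 CPM in the others. Repeat families took 10.1% of the counts of library 1 of WT with azacitidine, against 2.97 to 6.81% elsewhere. Because endothelial cells share several of the receptors described here, 15 endothelial and stromal genes were summed, and reached 11.7 to 37.0 CPM in the 16 libraries. Their defining cadherin Cdh5 was at most 0.231 CPM and was at 0 in 5 libraries. Others of the list were higher. Plvap ran from 3.25 to 33.4 CPM, and Sox18, Cldn5 and Kdr reached 6.64, 5.54 and 4.43 CPM. Of the 36 genes, 12 share exon bases with another counted gene, and 11 of these with a gene on the other strand, among them Mecom, Runx1, Cd34, Cd81 and Txnip, a thioredoxin inhibitor.

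Levels between genes were compared on the authors' FPKM, which are per length of the counted exons. In WT with NaCl the highest levels were those of Lmo2, a LIM-domain bridge between TAL1 and GATA factors, at 573 ± 44.1 FPKM (SD, n = 4), and Adgrg1, an adhesion G protein-coupled receptor, at 504 ± 135. These neighbours overlapped in their spread. Cd34, a sialomucin that is low on the most primitive mouse stem cells, followed at 167 ± 13.7, and Cd81, a tetraspanin, at 137 ± 17.3. Some stem cell markers stood at the low end, while Procr, at 29.1 ± 14.4 FPKM, and Hlf, at 26.2 ± 10.8, ranked 13 and 15 of the 36. Mecom, the zinc finger factor also called EVI1, stood at 3.00 ± 2.12 FPKM and Fgd5, a guanine nucleotide exchange factor, at 2.17 ± 1.69. Slamf1 was the lowest of the 36 at 1.46 ± 0.277, within the spread of Clec1a, a C-type lectin receptor, at 1.80 ± 0.974.

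The genes also differed in how far libraries of 1 group lay apart. The SD of log2 CPM within groups was 0.52 at the median of the 36 genes, against 0.43 at the median of all genes tested. It was lowest for Cd81 and Lmo2, both at 0.22, and Bmi1, a Polycomb subunit, at 0.22. The SD was highest for Fgd5 at 1.19, Sult1a1, a phenol sulfotransferase, at 0.96, and Procr, the endothelial protein C receptor, at 0.91. Bulk RNA cannot tell fewer stem cells in the gate apart from less RNA of a gene per cell.

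**Figure D1:**
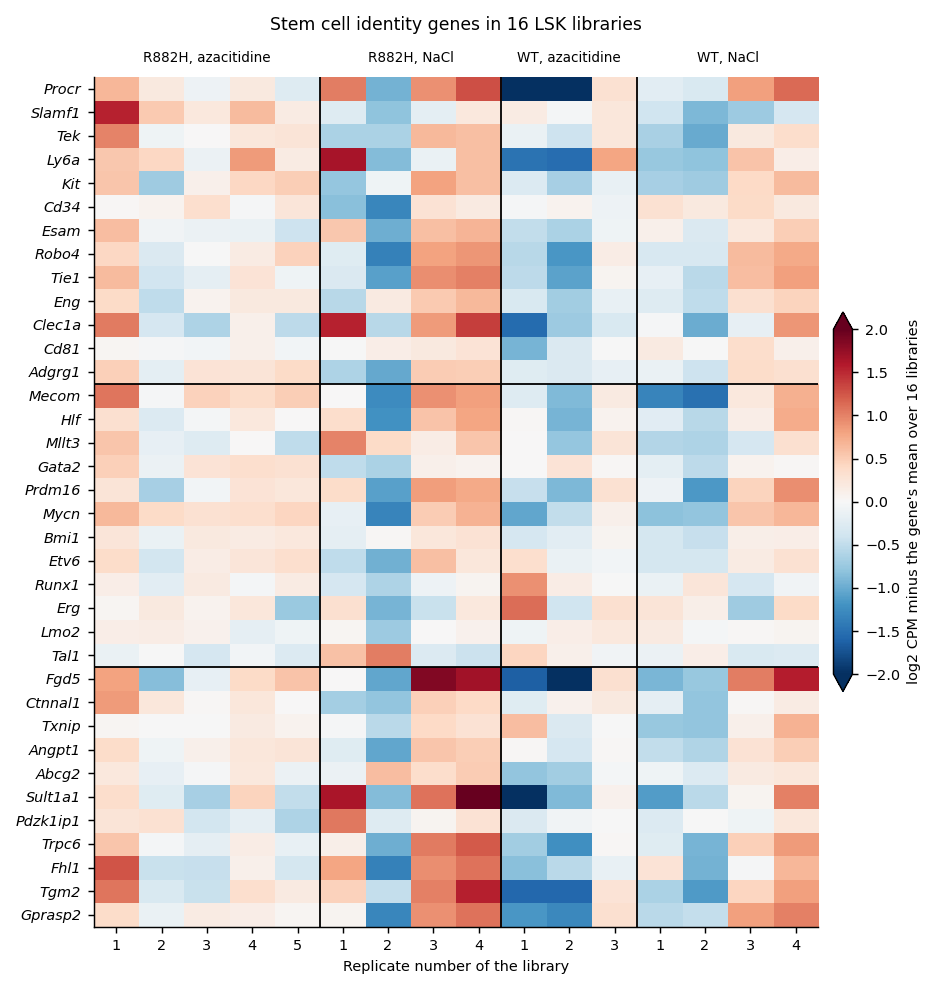
Log2 CPM of each of the 36 genes minus its mean over the 16 libraries, in columns by group and replicate number and in rows by role (receptors, regulators, other markers). Red is above and blue below the gene's mean, cut at 2 on the log2 scale. Libraries 3 and 4 of both NaCl groups are mostly red. Libraries 1 and 2 of the NaCl groups are mostly blue, except library 1 of R882H with NaCl, which is mixed. Library 1 of R882H with azacitidine is mostly red.

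Many of the 36 genes were high or low in the same libraries, and the part of promoter sequence in this was not tested. The sequence around the start is shown for a small set: the regulators Mecom and Hlf, a PAR-family bZIP factor, and the receptor Procr. Each window holds 250 bases before and 50 after a RefSeq transcription start on GRCm38.p6, 5′ to 3′. Capitals mark letters searched on both strands, which were the GATA motifs AGATAA or else TGATAA, the ETS motifs CCGGAA or else AGGAAG, the E-boxes CAGCTG or else CAGGTG, and TGTGGT as a RUNX motif. The Mecom window, at chr3:30509710-30510009 on the minus strand, lies inside the span annotated for the gene. It holds 1 GATA motif and 19 CpG. The Hlf window, at chr11:90390868-90391167 on the minus strand, holds an ETS motif, an E-box read on the other strand and 30 CpG. The Procr window, at chr2:155750967-155751266 on the plus strand, holds 1 E-box and 13 CpG.
Mecom: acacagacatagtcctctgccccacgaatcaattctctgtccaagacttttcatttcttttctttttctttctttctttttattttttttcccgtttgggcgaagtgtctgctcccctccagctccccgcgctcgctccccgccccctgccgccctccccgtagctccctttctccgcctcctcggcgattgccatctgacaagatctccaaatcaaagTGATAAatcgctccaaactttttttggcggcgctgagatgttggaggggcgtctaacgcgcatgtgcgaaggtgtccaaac
Hlf: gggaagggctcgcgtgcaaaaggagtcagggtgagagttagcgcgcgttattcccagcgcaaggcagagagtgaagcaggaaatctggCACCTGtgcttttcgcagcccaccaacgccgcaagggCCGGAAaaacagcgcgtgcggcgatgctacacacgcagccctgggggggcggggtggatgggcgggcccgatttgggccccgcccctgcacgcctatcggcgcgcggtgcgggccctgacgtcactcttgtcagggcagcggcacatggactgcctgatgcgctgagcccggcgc
Procr: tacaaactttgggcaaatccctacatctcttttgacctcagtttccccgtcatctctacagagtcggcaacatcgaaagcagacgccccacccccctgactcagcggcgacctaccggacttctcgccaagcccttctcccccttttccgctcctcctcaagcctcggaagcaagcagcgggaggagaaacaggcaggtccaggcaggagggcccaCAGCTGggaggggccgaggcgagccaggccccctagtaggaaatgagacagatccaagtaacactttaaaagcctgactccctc

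Of the 36 genes, 30 had such windows, 42 in all, and none was found in the table for Clec1a, Angpt1, Tgm2, Lmo2, Ly6a and Esam. The median window of these genes held 13.5 CpG, against 19 over the 14814 windows of the genes tested, and 28.6% held 5 CpG or fewer, against 16.7%. Among the CpG-poor windows were those of Slamf1, with 4, Tek, the angiopoietin receptor, with 3, and Sult1a1, with 0. GATA letters were present in 14.3% of the windows, against 11.4% of all windows, and ETS letters in 45.2%, against 51.3%. E-box letters were present in 28.6%, against 31% of all windows, and RUNX letters in 7.14%, against 13.4%. These shares describe letters in a fixed window and say nothing of binding.

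The first comparison asked what azacitidine did in R882H cells. None of the 36 genes was called by edgeR's quasi-likelihood test at a Benjamini-Hochberg adjusted p under 0.05, where 0.00545% of the genes tested were called. At an unadjusted p under 0.05 there were 4 of the 36, 2 higher and 2 lower, against 6.69% of all genes. The median log2 change over the 36 was -0.16, with 14 positive and 22 negative values, and over all genes it was -0.04. Single libraries moved this median, which was -0.10 without azacitidine library 2, -0.06 without NaCl library 3 and -0.0056, with 18 positive and 18 negative values, without NaCl library 4. It was -0.03 in limma-voom. By role, the median was -0.15 for the receptors, 0.13 for the transcription and chromatin regulators and -0.43 for the other markers. Of the 36, 0 had all azacitidine libraries above all NaCl libraries, against 1.09% of all genes, and 0 had them all below, against 0.485%.

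Slamf1, whose product CD150 is a homophilic receptor used to sort stem cells, had the lowest p of the 36. It stood at 40.5, 20.0, 16.2, 21.7 and 15.6 CPM in R882H with azacitidine, against 11.7, 8.01, 12.2 and 16.1 CPM in R882H with NaCl. Only the 15.6 CPM of library 5 and the 16.1 CPM of NaCl library 4 kept the groups from separating. edgeR gave a log2 change of 0.93 (SE 0.28, adjusted p = 0.415), and it was 0.62 without the high azacitidine library 1. In WT, Slamf1 stood at 15.6, 13.5 and 16.3 CPM with azacitidine, against 10.6, 7.47, 8.43 and 11.1 CPM with NaCl. The WT groups did not overlap, and the log2 change was 0.69 (SE 0.31, adjusted p = 0.825). No other gene of the 36 had all WT azacitidine libraries above all WT NaCl libraries, against 2.94% of all genes. Averaged over genotypes the log2 change of Slamf1 was 0.81 (SE 0.21, adjusted p = 0.244) in edgeR. DESeq2 gave the same size with an adjusted p = 0.0209, and called 0.878% of all genes in that contrast. Over all 26 other settings the adjusted p of this average ran from 0.0209 to 0.553 and the change from 0.53 to 1.14. Slamf1 was positive in each genotype in every setting tried.

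**Figure D2:**
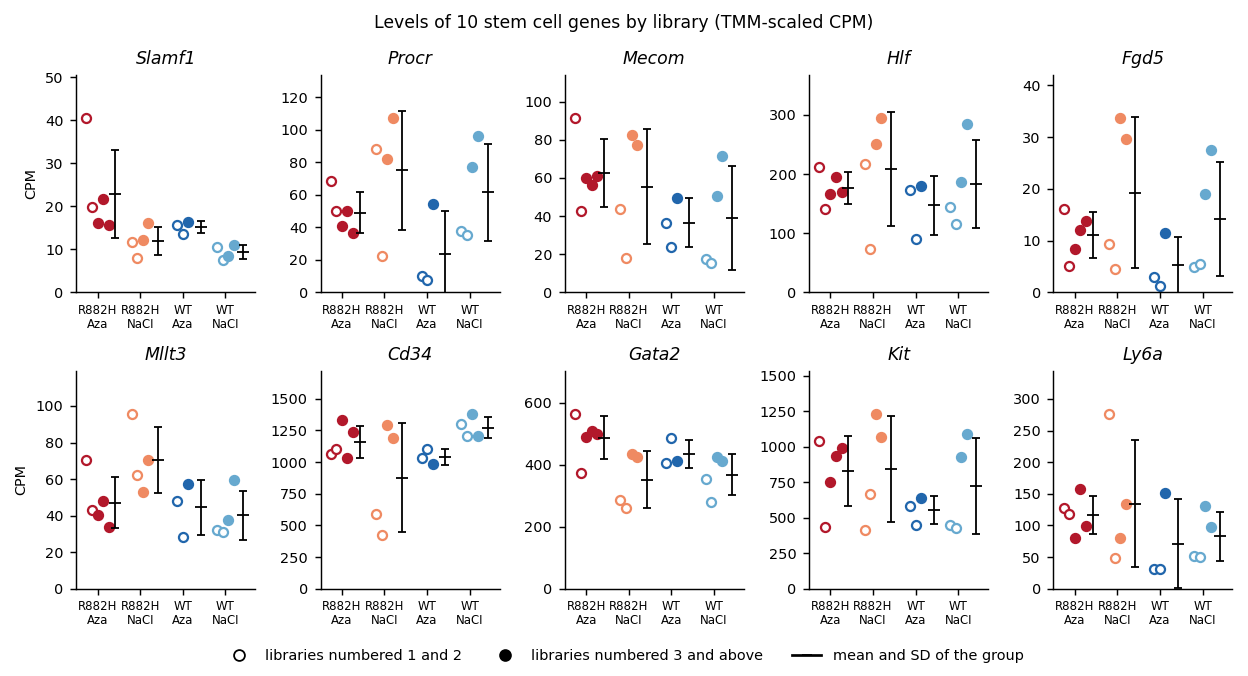
CPM of 10 stem cell genes in each library (linear axis from 0), by group, with open circles for libraries numbered 1 and 2, filled circles for those numbered 3 and above, and the mean and SD of each group as a bar, whose lower end is not drawn below 0. Slamf1 lies higher with azacitidine in both genotypes, Mecom and Fgd5 are lower in libraries 1 and 2 than in libraries 3 and 4 of both NaCl groups, and Procr and Fgd5 are lowest in WT azacitidine libraries 1 and 2.

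Among the transcription and chromatin regulators in R882H, Gata2 had the lowest p. Gata2, the GATA factor of early stem and progenitor cells, stood at 563, 373, 490, 511 and 501 CPM in R882H with azacitidine, against 286, 262, 435 and 427 CPM with NaCl. The highest NaCl library lay above only the lowest azacitidine library. Its log2 change was 0.47 (SE 0.18, adjusted p = 0.645). WT values were 408, 488 and 412 CPM with azacitidine and 355, 281, 425 and 413 CPM with NaCl, which overlapped, with a log2 change of 0.24.

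Mllt3, the YEATS-domain reader also known as AF9, stood at 70.6, 42.9, 40.3, 48.3 and 33.8 CPM in R882H with azacitidine, against 95.4, 62.4, 52.9 and 70.6 CPM with NaCl. All but library 1 of the azacitidine group lay below all of the NaCl group. This was a log2 change of -0.58 (SE 0.26, adjusted p = 0.730). In WT, Mllt3 stood at 48.2, 28.2 and 57.2 CPM with azacitidine, against 31.9, 31.3, 37.8 and 59.7 CPM with NaCl, with overlap and a log2 change of 0.15.

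Tal1, the bHLH factor that also drives red cell and megakaryocyte genes, stood at 41.3, 45.0, 35.7, 43.6 and 37.1 CPM in R882H with azacitidine, against 67.3, 91.4, 37.3 and 33.5 CPM with NaCl. Only NaCl libraries 1 and 2 lay above the azacitidine range. Its log2 change was -0.50 (SE 0.24, adjusted p = 0.754), and it was 0.20 without NaCl libraries 1 and 2 and library 1 of WT with azacitidine. Summed erythroid and megakaryocyte genes were 4194 and 10660 CPM in those NaCl libraries, against 1968 and 1925 CPM in NaCl libraries 3 and 4. Their part in the result was not tested. In WT, Tal1 stood at 60.5, 48.1 and 42.9 CPM with azacitidine, against 41.5, 49.6, 36.5 and 37.2 CPM with NaCl, which overlapped.

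Sult1a1 stood at 14.0, 9.28, 6.97, 15.0 and 7.80 CPM in R882H with azacitidine, against 34.0, 6.01, 23.4 and 51.1 CPM with NaCl. Its NaCl library 2 was the lowest of all 9 libraries and the other 3 NaCl libraries were the highest. edgeR gave a log2 change of -1.43 (SE 0.54, adjusted p = 0.628). In WT it stood at 2.59, 5.98 and 11.7 CPM with azacitidine, against 5.07, 7.55, 11.4 and 22.1 CPM with NaCl, and the averaged change was -1.10 (SE 0.42, adjusted p = 0.554). Its counted exons share 61 bases with Sgf29 on the other strand, and the strand setting of the counting is not given in the sources used here.

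The regulators at the head of the stem cell programme had small changes beside wide spreads. Mecom stood at 91.3, 42.8, 60.2, 56.4 and 61.0 CPM in R882H with azacitidine, against 43.7, 18.2, 82.3 and 77.2 CPM with NaCl, a log2 change of 0.17. In WT it stood at 36.6, 23.5 and 49.6 CPM with azacitidine, against 17.4, 15.4, 50.7 and 71.6 CPM with NaCl, a log2 change of -0.09. The groups overlapped throughout. Hlf stood at 211, 141, 166, 196 and 170.1 CPM in R882H with azacitidine, against 217, 73.2, 251 and 295 CPM with NaCl, a log2 change of -0.24. In WT it stood at 173, 89.5 and 179 CPM with azacitidine, against 145, 115, 187 and 285 CPM with NaCl, a log2 change of -0.31. For both genes the azacitidine libraries of R882H lay inside or close to the range spanned by the NaCl libraries.

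In WT cells azacitidine called none of the 36 genes, and 0.0% of all genes, in edgeR. At an unadjusted p under 0.05 there were 5 of the 36, 2 higher and 3 lower, against 6.02% of all genes. The median log2 change over the 36 was -0.31, with 11 positive and 25 negative values, against 0.01 over all genes. The median was -0.13 without WT NaCl library 4 and -0.48 without WT azacitidine library 3. The 13 receptors, Kit and Ly6a of the gate included, had 11 negative values and a median of -0.41.

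Cd81 stood at 193, 301 and 367 CPM in WT with azacitidine, against 419.7, 367, 472 and 397 CPM in WT with NaCl. WT azacitidine library 1 was far below the others, and library 3 met the lowest NaCl library. This was a log2 change of -0.53 (SE 0.18, adjusted p = 0.825). In R882H it stood at 379.9, 364, 356, 394 and 354 CPM with azacitidine, against 368, 403, 422 and 447 CPM with NaCl, which overlapped, and the averaged change was -0.34 (SE 0.12, adjusted p = 0.464).

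Abcg2, the efflux pump that gives stem cells their side population dye exclusion, stood at 50.8, 54.2 and 85.1 CPM in WT with azacitidine, against 82.4, 72.4, 99.5 and 103 CPM with NaCl. Its log2 change was -0.49 (SE 0.21, adjusted p = 0.825). In R882H it stood at 101, 77.9, 86.4, 101 and 80.4 CPM with azacitidine, against 81.0, 134, 111 and 125 CPM with NaCl. Libraries overlapped in both genotypes, and the averaged change was -0.41 (SE 0.14, adjusted p = 0.439).

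Procr stood at 9.98, 7.31 and 54.2 CPM in WT with azacitidine, against 37.8, 35.4, 77.1 and 96.0 CPM with NaCl. Its libraries 1 and 2 with azacitidine were the lowest of the 16, while library 3 lay among the NaCl libraries. edgeR gave a log2 change of -1.37 (SE 0.62, adjusted p = 0.825). In R882H, Procr stood at 68.9, 50.1, 40.6, 49.8 and 36.5 CPM with azacitidine, against 88.5, 22.6, 82.0 and 107 CPM with NaCl, a log2 change of -0.61.

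Fgd5, like Procr, was lowest in WT azacitidine libraries 1 and 2. It stood at 3.00, 1.30 and 11.6 CPM in WT with azacitidine, against 4.91, 5.52, 19.0 and 27.5 CPM with NaCl, a log2 change of -1.43 with an SE of 0.80. In R882H it stood at 16.2, 5.14, 8.29, 12.1 and 13.8 CPM with azacitidine, against 9.30, 4.55, 33.7 and 29.7 CPM with NaCl, a log2 change of -0.80 with an SE of 0.67. Groups overlapped in both genotypes.

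Runx1, the core binding factor that blood stem cells need in order to form, stood at 171, 99.6 and 90.2 CPM in WT with azacitidine, against 82.8, 107, 71.3 and 85.7 CPM with NaCl. Library 1 with azacitidine was the highest, and the others overlapped. This was a log2 change of 0.47 (SE 0.22, adjusted p = 0.825). In R882H it stood at 99.3, 78.2, 102, 87.8 and 102 CPM with azacitidine, against 71.6, 58.8, 84.3 and 93.5 CPM with NaCl, and the averaged change was 0.38 (SE 0.14, adjusted p = 0.564).

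Cd34 was the only gene of the 36 whose WT azacitidine libraries all lay below the WT NaCl libraries, a layout that 2.79% of all genes had. It stood at 1031, 1104 and 983 CPM in WT with azacitidine, against 1302, 1205, 1376 and 1208 CPM with NaCl. The log2 change was -0.29 with an SE of 0.29. In R882H it stood at 1066, 1105, 1333, 1033 and 1241 CPM with azacitidine, against 589, 427, 1292 and 1193 CPM with NaCl, where NaCl libraries 1 and 2 lay apart below the rest. The log2 change in R882H was 0.40 with an SE of 0.25.

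The remaining members had adjusted p well above the threshold in either genotype. Among the receptors, the log2 change with azacitidine in R882H was 0.20 for Tek, -0.28 for Tie1, -0.17 for Eng, the TGF-beta co-receptor endoglin, and 0.26 for Adgrg1. In WT these receptors were at 0.09, -0.72, -0.41 and -0.30. Among the regulators, the R882H changes were 0.21 for Etv6, an ETS repressor, 0.12 for Erg, an ETS activator, 0.14 for Lmo2 and -0.34 for Prdm16, a zinc finger regulator. The WT changes of these regulators were 0.09, 0.41, 0.03 and -0.49. Of the other markers, Angpt1, the ligand of Tek, was at 0.11 in R882H and -0.09 in WT, and Txnip at -0.02 and 0.21. Ctnnal1, an alpha-catulin used as a stem cell reporter gene, was at 0.33 in R882H and 0.18 in WT.

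For the genes of the gate, Kit stood at 1037, 431, 753, 937 and 992 CPM in R882H with azacitidine, against 409.9, 666, 1226 and 1067 CPM with NaCl. In WT, Kit stood at 584, 446 and 636 CPM with azacitidine, against 446, 429, 926 and 1090 CPM with NaCl. Ly6a stood at 127, 118, 81.0, 158 and 98.6 CPM in R882H with azacitidine, against 276, 48.5, 80.1 and 133 CPM with NaCl. Groups overlapped for Kit and for Ly6a. In WT, Ly6a stood at 31.7, 30.6 and 152 CPM with azacitidine, against 51.9, 50.4, 131 and 97.0 CPM with NaCl. Ly6a is one of a family of near-identical genes, so its reads may be split with relatives and its counts are uncertain.

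**Figure D3:**
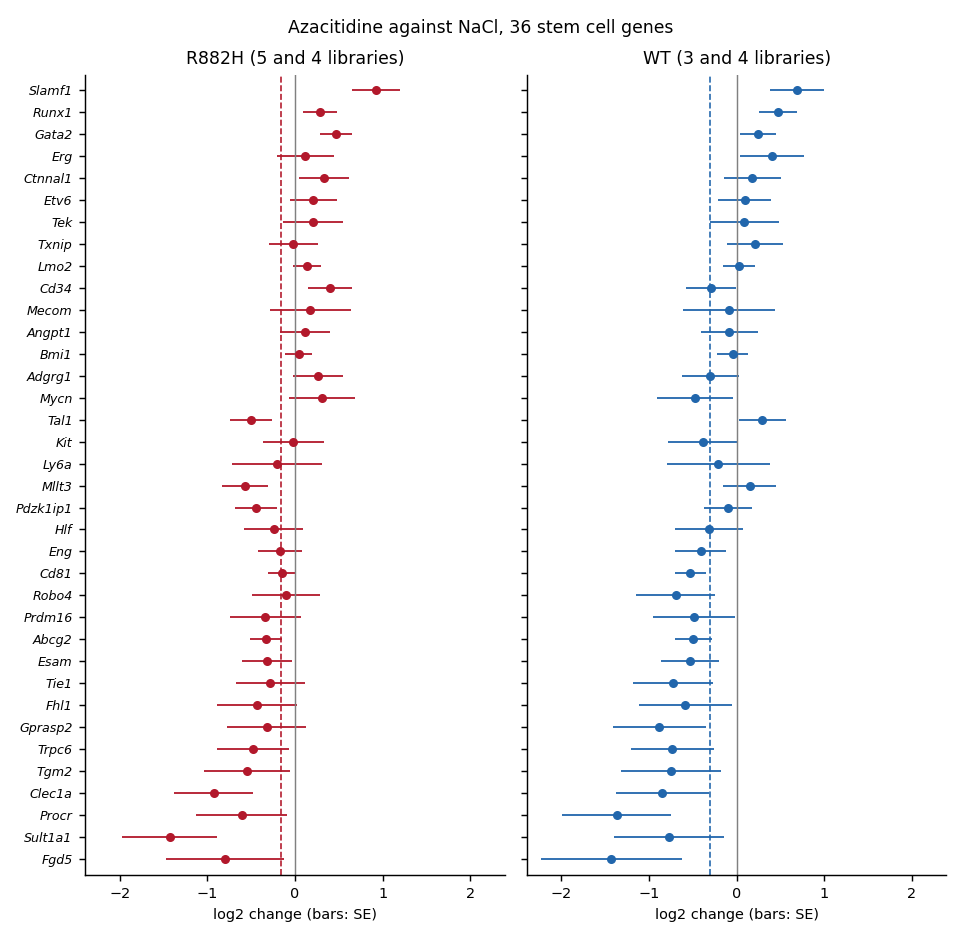
Log2 change with azacitidine against NaCl in R882H (left) and WT (right) for each of the 36 genes, with points for the edgeR estimate, bars for its SE and a dashed line for the median of the 36. Slamf1 is at 0.93 and 0.69, and Fgd5 at -0.80 and -1.43.

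The next contrast asked whether azacitidine acted differently in R882H and in WT cells. It called none of the 36 genes, and 0.0% of all genes. Only 1 of the 36, Tal1, had an unadjusted p under 0.05, against 6.07% of all genes. The difference of the log2 changes, R882H minus WT, was -0.79 (SE 0.36, adjusted p = 0.763) for Tal1, -0.72 (SE 0.40, adjusted p = 0.763) for Mllt3 and 0.69 (SE 0.38, adjusted p = 0.763) for Cd34. It was 0.38 (SE 0.23, adjusted p = 0.765) for Cd81 and 0.78 (SE 0.58, adjusted p = 0.768) for Mycn, the MYC family member of immature cells. The median over the 36 genes was 0.18 with 28 positive values, against -0.05 over all genes. It was -0.04 without library 2 of R882H with NaCl and -0.01 without library 4 of WT with NaCl, and it ran up to 0.36 as each other library was left out. Libraries that brought it to 0.12 or less were R882H azacitidine 1, R882H NaCl 1, WT azacitidine 2 and WT NaCl 3, at 0.07, 0.12, 0.04 and 0.10. Those that brought it above 0.26 were R882H azacitidine 2, R882H NaCl 3 and 4, WT azacitidine 3 and WT NaCl 2.

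The genotype comparison asked how R882H cells differed from WT cells under each treatment. With NaCl none of the 36 genes was called, where 0.00545% of all genes were, and 2 had an unadjusted p under 0.05, against 5.59% of all genes. No gene of the 36 had R882H and WT libraries that did not overlap with NaCl, against 0.878% higher and 1.09% lower among all genes. The median log2 difference over the 36 was 0.20, with 27 positive and 9 negative values, against 0.03 over all genes. This median rested on single libraries. It was 0.05 with 19 positive values without R882H NaCl library 3, 0.06 with 21 without R882H NaCl library 4, and 0.05 with 20 and 0.11 with 22 without WT NaCl libraries 2 and 1. It was 0.35 without R882H NaCl library 2 and 0.42 without WT NaCl library 4. T and NK cell genes, most of them at very low counts, had a median of 3.02 in this contrast. At an unadjusted p under 0.05, 7 of 13 were higher and 1 lower. Erythroid and megakaryocyte genes had a median of 1.10, with 5 of 15 higher and 1 lower at that level. Their part in the result was not tested. With azacitidine none of the 36 was called either, where 0.00545% of all genes were, and 2 had an unadjusted p under 0.05, against 9.34% of all genes. Here the median was 0.44, against -0.02 over all genes, with 31 positive and 5 negative values. All 13 receptors were positive, Kit and Ly6a of the gate included. The median was 0.28 without R882H azacitidine library 1, and within libraries numbered 3 and above, of which WT has 1 with azacitidine, it was -0.0191 with 16 positive and 20 negative values. Neutrophil and monocyte genes had a median of -0.90 here, with 6 of 14 lower at an unadjusted p under 0.05, and their part in the result was not tested. None of the 36 genes was lower in R882H without overlap, against 5.66% of all genes. The contrasts share their libraries in pairs with the azacitidine contrasts and are not independent of them.

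With NaCl the lowest p was that of Mllt3, at 70.3 ± 18.2 CPM in R882H and 40.2 ± 13.3 CPM in WT (SD, n = 4 each). Only WT library 4 lay within the R882H range, and the log2 difference was 0.81 (SE 0.28, adjusted p = 0.797). Sult1a1 differed by 1.31 (SE 0.58, adjusted p = 0.877). For Cd34 the log2 difference was -0.54 (SE 0.26, adjusted p = 0.909), with R882H library 3 inside the WT range, library 4 just under it and libraries 1 and 2 far below.

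Clec1a stood at 26.9, 6.29, 16.7 and 24.2 CPM in R882H with NaCl, against 9.04, 4.64, 8.23 and 17.0 CPM in WT with NaCl. The groups overlapped, and the log2 difference was 0.93 (SE 0.48, adjusted p = 0.921). With azacitidine it stood at 19.0, 7.29, 6.03, 9.87 and 6.45 CPM in R882H, against 3.17, 5.60 and 7.47 CPM in WT. For Tal1 the NaCl difference was 0.48 (SE 0.25, adjusted p = 0.923), and it was -0.21 without R882H NaCl libraries 1 and 2 and WT azacitidine library 1.

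With azacitidine, Abcg2 had the lowest p, at 89.4 ± 11.2 CPM in R882H (SD, n = 5) and 63.4 ± 18.9 CPM in WT (SD, n = 3). The WT library 3 lay within the R882H range, and the log2 difference was 0.50 (SE 0.20, adjusted p = 0.533). Cd81 differed by 0.36 (SE 0.17, adjusted p = 0.535) and Slamf1 by 0.59 (SE 0.30, adjusted p = 0.540). Mycn stood at 245, 204, 194, 197 and 211 CPM in R882H with azacitidine, against 75.9, 111 and 167 CPM in WT with azacitidine. These Mycn libraries did not overlap, the only such case among the 36 genes, against 5.05% of all genes higher in R882H, and the log2 difference was 0.83 (SE 0.42, adjusted p = 0.540). With NaCl, Mycn stood at 139.5, 62.9, 223 and 253 CPM in R882H, against 88.6, 90.4, 229.8 and 248 CPM in WT, which overlapped.

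Bmi1 stood at 82.8, 64.2, 80.2, 78.5 and 81.4 CPM in R882H with azacitidine, against 55.2, 60.5 and 72.7 CPM in WT with azacitidine. The log2 difference was 0.30 (SE 0.17, adjusted p = 0.544). With NaCl, Bmi1 stood at 61.6, 71.3, 81.8 and 85.8 CPM in R882H, against 54.9, 50.8, 76.1 and 77.2 CPM in WT. Groups overlapped under both treatments.

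Averaged over both treatments, R882H called none of the 36 genes, where 0.00545% of all genes were called. At an unadjusted p under 0.05 there were 7 of the 36, all higher in R882H, against 7.97% of all genes in either direction. The median of the 36 was 0.31 with 32 positive values, against -0.0025 over all genes, and 0.13 with 27 positive values within libraries numbered 3 and above. In the same contrast T and NK cell genes, most of them at very low counts, had a median of 1.62. At an unadjusted p under 0.05, 7 of them were higher and 1 lower. Neutrophil and monocyte genes had a median of -0.32, with 5 lower, and lymphoid priming genes -0.28, with 1 higher and 4 lower. The part of these lists was not tested. The averaged log2 difference was 0.42 (SE 0.14, adjusted p = 0.620) for Abcg2, 0.88 (SE 0.35, adjusted p = 0.620) for Clec1a and 0.98 (SE 0.42, adjusted p = 0.620) for Sult1a1. It was 0.47 (SE 0.21, adjusted p = 0.620) for Slamf1. Tgm2, a transglutaminase, stood at 70.8, 27.2, 24.9, 42.7 and 38.0 CPM in R882H with azacitidine, against 11.3, 11.4 and 40.6 CPM in WT with azacitidine. With NaCl it stood at 46.4, 24.3, 67.9 and 99.6 CPM in R882H, against 21.8, 15.4, 45.3 and 59.4 CPM in WT. Groups overlapped under both treatments, and the averaged difference was 0.85 (SE 0.38, adjusted p = 0.620). Its exons share 370 bases with Rprd1b on the other strand.

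**Figure D4:**
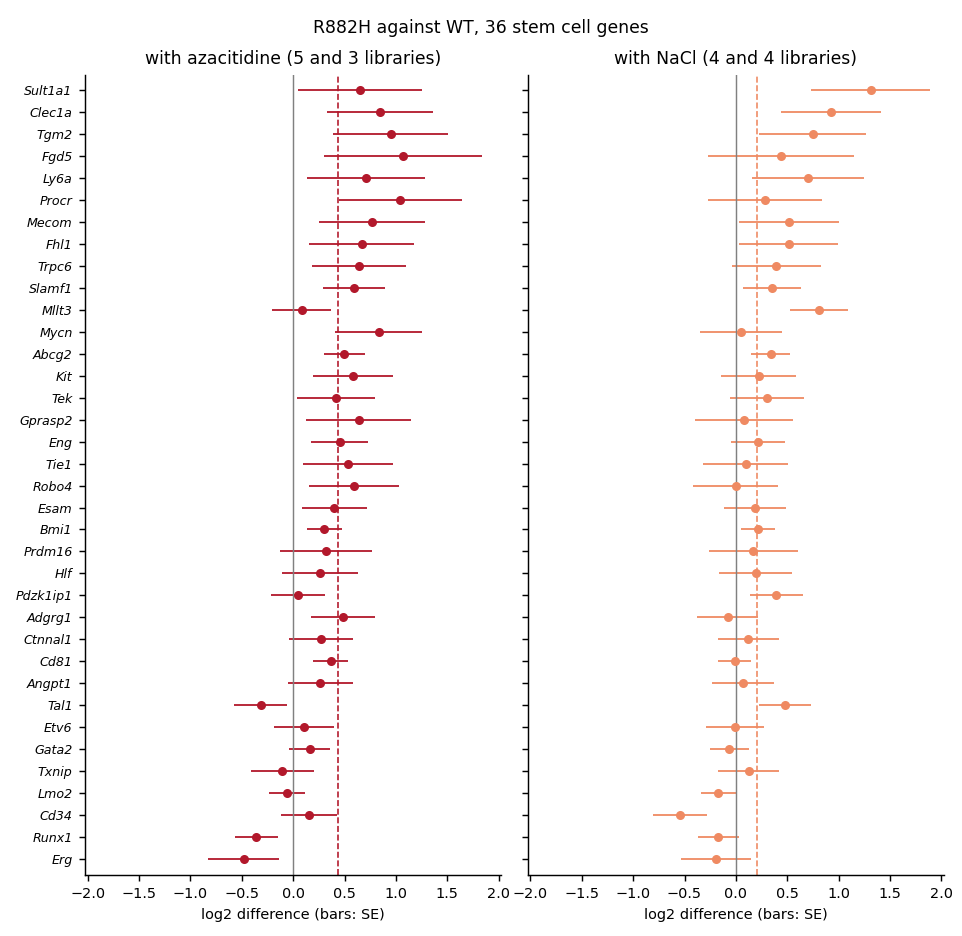
Log2 difference of R882H against WT with azacitidine (left) and with NaCl (right) for each of the 36 genes, with points for the edgeR estimate, bars for its SE and a dashed line for the median of the 36, at 0.44 with azacitidine and 0.20 with NaCl.

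The averaged azacitidine contrast called none of the 36 genes in edgeR, where 0.0218% of all genes were called. At an unadjusted p under 0.05 there were 9 of the 36, 3 higher and 6 lower, against 6.85% of all genes. The 3 with positive changes were Slamf1, Runx1 and Gata2. The median of the 36 was -0.21, with 12 positive and 24 negative values, against -0.02 over all genes. It was -0.12 without WT azacitidine library 2, -0.13 without WT NaCl library 4 and -0.14 without R882H NaCl library 1. DESeq2 called 0 of the 36 genes in each of the other 6 contrasts, where its share over all genes was 0.48% for azacitidine in R882H, 0.251% in WT and 0.0654% for the difference between these. It was 0.153% for R882H against WT with NaCl, 0.114% with azacitidine and 0.234% averaged over treatments. limma-voom called 0 of the 36 in all 7 contrasts.

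The NaCl libraries also differed by replicate number. No meaning is given for the replicate numbers, and the split into libraries numbered 1 and 2 and those numbered 3 and above was chosen after the components of these libraries had been seen, so it is described without a p. In the NaCl groups, 33 of the 36 genes averaged lower in libraries 1 and 2 than in libraries 3 and 4. Their median log2 difference was -0.88, against -0.05 over all genes tested, of which 52.9% averaged lower. For 18 of the 36 genes the 4 libraries numbered 1 and 2 all lay below the 4 numbered 3 and 4, against 15.0% of all genes. Tal1 alone had them all above, against 15.9% of all genes.

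The difference was widest for Fgd5, at 6.07 ± 2.19 CPM in libraries 1 and 2 and 27.4 ± 6.21 CPM in libraries 3 and 4 (SD, n = 4 each). Mecom stood at 23.7 ± 13.4 CPM in libraries 1 and 2 and 70.5 ± 13.9 CPM in libraries 3 and 4. Gprasp2, a receptor sorting protein whose exons share 376 bases with Bhlhb9, stood at 7.11 ± 2.58 CPM in libraries 1 and 2 and 19.4 ± 1.57 CPM in libraries 3 and 4. The cation channel Trpc6 stood at 13.6 ± 5.10 CPM in libraries 1 and 2 and 34.8 ± 7.38 CPM in libraries 3 and 4. Mycn, Tie1, Robo4, Prdm16, Tek and Angpt1 were each lower by more than 1 on the log2 scale with no overlap. Tie1 is a receptor related to Tek and Robo4 a roundabout receptor. Lmo2, Cd81, Mllt3, Runx1, Pdzk1ip1, a small membrane protein, and Erg lay between -0.18 for Lmo2 and 0.08 for Erg. Cd34 was split in R882H, where libraries 1 and 2 were lower by a log2 value of -1.31, and not in WT, at -0.04.

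Ribosomal protein genes took 3.64 to 5.29% of gene counts in NaCl libraries 1 and 2, against 2.17 to 2.79% in NaCl libraries 3 and 4. With azacitidine they took 2.36 to 3.12% in R882H and 3.31 to 5.27% in WT. Erythroid and megakaryocyte genes summed to 2565 to 10660 CPM in NaCl libraries 1 and 2, against 1925 to 2283 CPM in NaCl libraries 3 and 4. Neutrophil and monocyte genes summed to 2555 to 5297 CPM in NaCl libraries 1 and 2, against 1895 to 2268 CPM in libraries 3 and 4. Lymphoid priming genes summed to 1847 to 5198 CPM in NaCl libraries 1 and 2, against 5352 to 24040 CPM in libraries 3 and 4. Much of that sum was Ighm, with a median of 5375 CPM over the 16 libraries. The part of any of these in the differences among the 36 genes was not tested. The median of the 36 centred log2 values was lowest in R882H with NaCl library 2, at -0.86, and highest in its library 4, at 0.60. Library 1 of that group was mixed, at -0.0024 with 17 of the 36 genes above their mean. Among the azacitidine libraries of R882H the median ran between -0.12 in library 2 and 0.44 in library 1, with libraries 3 to 5 in between. Libraries 1 and 2 thus did not both lie below the others there. In WT with azacitidine they did, at -0.30 and -0.58, against 0.06 in library 3.

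The contrast of azacitidine with NaCl in R882H had medians of opposite sign within these sets of numbers. Within libraries numbered 1 and 2, the 36 genes had a median log2 change of 0.44, with 28 positive and 8 negative values, and edgeR called none of them, where 0.229% of all genes were called. For 12 of the 36 both azacitidine libraries lay above both NaCl libraries, against 22.9% of all genes, and for 1, Tal1, below, against 21.7%. This set holds NaCl library 2, the lowest of all libraries in these genes, with a median centred log2 value of -0.86. It also holds azacitidine library 1, the highest of the azacitidine libraries, at 0.44. Higher values with azacitidine were therefore set in part by the choice of libraries. Within libraries numbered 3 and above, which are 3 with azacitidine and 2 with NaCl, the median was -0.43, with 5 positive and 31 negative values. For 27 of the 36 the azacitidine libraries all lay below the NaCl libraries, against 17.3% of all genes. Gata2 alone had them all above, against 18% of all genes.

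In that second set edgeR put 6 of the 36 genes under an adjusted p of 0.05, all lower with azacitidine, where 1.28% of all genes passed in either direction. The set was chosen after the libraries had been seen, and its NaCl libraries 3 and 4 are those of R882H in which the 36 genes were highest, with median centred log2 values of 0.54 and 0.60. Lower values with azacitidine were therefore set in part by the choice, and the values are given as a description. The 6 were the receptors Procr, Esam, a junctional adhesion molecule, and Tie1, together with Fgd5, Trpc6 and Gprasp2. Procr stood at 40.6, 49.8 and 36.5 CPM in R882H with azacitidine, against 82.0 and 107 CPM with NaCl, a log2 difference of -1.18. Fgd5 stood at 8.29, 12.1 and 13.8 CPM with azacitidine, against 33.7 and 29.7 CPM with NaCl, a log2 difference of -1.49. It was -0.88 for Esam, -0.97 for Tie1, -1.20 for Trpc6 and -0.91 for Gprasp2, and -0.45 for Mecom and -0.64 for Hlf. Within libraries 1 and 2 all 6 were positive, between 0.09 for Procr and 0.84 for Tie1.

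WT cells allow less, with 2 azacitidine libraries numbered 1 and 2 and 1 numbered 3. Within libraries 1 and 2 the median of the 36 was -0.06, with 9 genes above without overlap, against 18.5% of all genes, and 10 below, against 14.6%. Against NaCl libraries 3 and 4, azacitidine library 3 lay below both for 25 of the 36 genes, against 38.3% of all genes, and above both for 6, against 38.8%. The median change was -0.39, and edgeR called none of the 36, where 0.00545% of all genes were called, on the assumption that the lone library varies like those of the other groups. Slamf1 was higher with azacitidine in both sets of both genotypes, with log2 changes of 1.61 and 0.32 in R882H and 0.68 and 0.73 in WT. Averaged over genotypes within libraries numbered 3 and above, 11 of the 36 genes passed, all lower with azacitidine, where 5.01% of all genes passed. The same limit applies, since NaCl libraries 3 and 4 of WT, at 0.20 and 0.46, were also those of their group highest in these genes. The 11 were Procr, Esam, Robo4, Tie1, Eng, Adgrg1, Mycn, Fgd5, Angpt1, Trpc6 and Gprasp2, with changes of -0.36 to -1.25. In the other contrasts edgeR called 0 of the 36 within either set of numbers. Within libraries numbered 3 and above the share over all genes was 0.0109% for the difference between responses and for R882H against WT under each treatment, and 0.0218% averaged over treatments. Within libraries 1 and 2 it was 0.0% for azacitidine in WT and averaged over genotypes, 0.0218% for the difference, 0.00545% for R882H against WT with NaCl and averaged over treatments, and 0.0327% with azacitidine. Of the 11 genes, the exons of Eng share 61 bases with Fpgs, and those of Angpt1 737 bases with Gm17473, on the other strand.

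**Figure D5:**
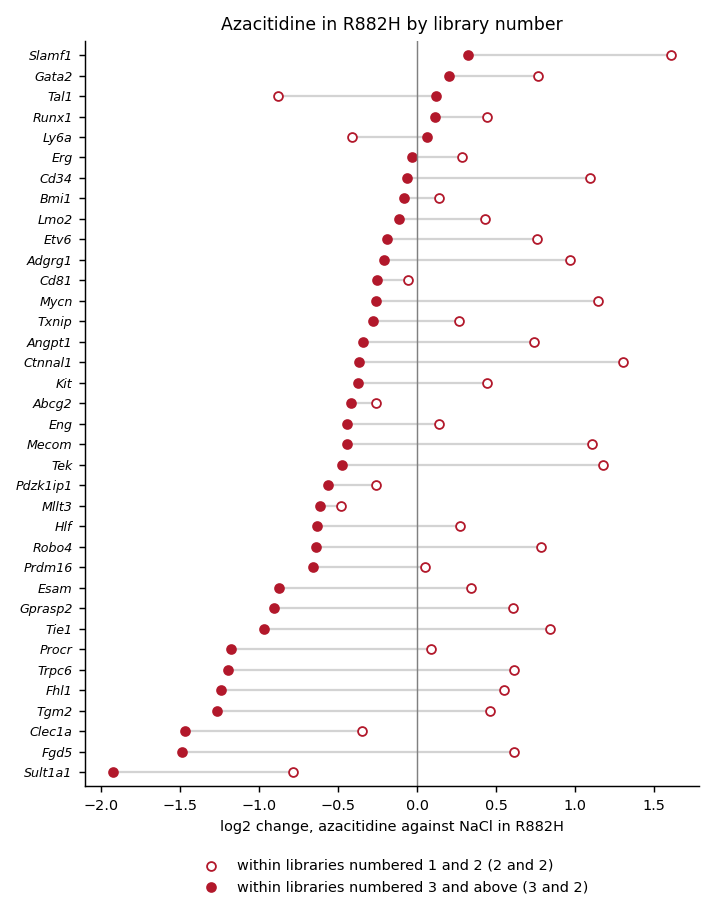
Log2 change with azacitidine against NaCl in R882H for each of the 36 genes, from edgeR within libraries numbered 1 and 2 (open, 2 and 2 libraries) and within libraries numbered 3 and above (filled, 3 and 2 libraries), joined by a line. Most open points lie above 0 and most filled points below 0, and Slamf1, Gata2 and Runx1 are above 0 in both.

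A further 26 stem cell genes, among them Meis1 and Hoxa9, were read in the same fits. None was called by edgeR in any contrast. At an unadjusted p under 0.05 there was 1 higher and 0 lower with azacitidine in R882H, 2 higher and 2 lower in WT, and 0 higher and 5 lower averaged over genotypes, against 6.69%, 6.02% and 6.85% of all genes. For R882H averaged over treatments there were 3 higher and 2 lower, against 7.97% of all genes. With azacitidine in R882H their median log2 change was -0.01 with 12 positive values, and in WT -0.03 with 13. Averaged over genotypes it was 0.02 with 15. For R882H against WT averaged over treatments it was 0.25 with 22 positive values. Among the lowest p in the averaged azacitidine contrast were those of Ndn, the growth suppressor necdin, and Cdkn1c, the cell cycle inhibitor p57. The averaged log2 change of Ndn was -1.06 (SE 0.40, adjusted p = 0.537) and that of Cdkn1c -0.77 (SE 0.31, adjusted p = 0.618). For R882H against WT the lowest p were those of the bHLH factor Lyl1, at -0.33 (SE 0.10, adjusted p = 0.62), the retinoic acid receptor Rarb, at 1.37 (SE 0.49), and the netrin receptor Neo1, at 1.34 (SE 0.55).

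Lists of lineage genes were read beside the stem cell genes, and edgeR called none of their members in any contrast. In R882H with azacitidine against NaCl, erythroid and megakaryocyte genes had a median log2 change of -1.33. Of these, 9 of 15 were lower at an unadjusted p under 0.05, against 6.69% of all genes in either direction. Their sums were 4194 and 10660 CPM in NaCl libraries 1 and 2. NaCl libraries 3 and 4, at 1968 and 1925 CPM, lay within the azacitidine range of 1827 to 2214 CPM. T and NK cell genes had a median of -2.46 in this contrast, with 10 of 13 lower at an unadjusted p under 0.05. Most of this list was at very low counts. Cd3d, Cd3e and Trac had medians of 0.45, 0.45 and 0.70 CPM over the 16 libraries and highest values of 22.3, 24.2 and 29.6 CPM. The summed list, in which Nkg7 alone held 236 to 841 CPM, ran the other way. It was 400.3 to 612 CPM (median 480) with azacitidine and 314 to 685 CPM (median 331) with NaCl. Neutrophil and monocyte genes had a median of 0.11 in R882H and 1.21 in WT, where 9 of 14 were higher at an unadjusted p under 0.05. Lymphoid priming genes summed to 9511 to 28430 CPM in R882H with azacitidine and 1847 to 13580 CPM with NaCl, and had a median change of 0.33. Ighm made up much of this sum, at 411 to 26100 CPM (median 5375) over the 16 libraries. Cell division genes had a median of -0.17 in R882H and 0.14 in WT. Genes of B and plasma cells had medians of 0.24 and -0.47, mature neutrophil and macrophage genes 0.96 and 0.69, and the 9 endothelial and stromal genes tested -0.47 and 0.15, in R882H and in WT. Mature neutrophil and macrophage genes summed to 690 CPM in library 2 of R882H with azacitidine, against 62.2 to 67.2 CPM in the others of that group. In WT with azacitidine they summed to 365 CPM in library 3, against 95.7 and 97.7 CPM in libraries 1 and 2. The part of these lists in the changes of the stem cell genes was not tested.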

How the data were processed

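RNA of sorted LSK cells was sequenced in 16 libraries of 4 groups, taken from the labels' titles. The authors deposited raw counts per gene and per repeat family, and FPKM values derived from them, with the length of each counted feature in bases as another unit. HISAT2 2.0.5, featureCounts 1.6.2 and edgeR 3.26.6 are named for the build GRCm38 in the submitters' processing notes, and the strand setting is not given in the sources used here. Per the labels, RNA of low integrity was excluded and cDNA was amplified.

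The 1201 repeat families were left out. Of the 30141 gene identifiers, 30100 had a symbol in the annotation. filterByExpr kept 18341, and edgeR 4.0.16 (R 4.3.3, TMM, quasi-likelihood, 1 coefficient per group, all 16 libraries) tested 7 contrasts with Benjamini-Hochberg adjustment over all genes, a call being an adjusted p under 0.05. DESeq2 1.42.0 and limma-voom 3.58.1 were alternatives, among 27 settings. The fits were tested on simulated data. Log2 CPM used a prior count of 2. Between genes, the authors' FPKM were compared. Nothing says that replicates are separate animals, so p-values measure the spread between libraries. In 25 pairs of libraries of 1 group the lowest chi-square per gene was 38.4, far above that of a library deposited again.

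The 36 genes, the further lists (other stem cell genes, lymphoid, neutrophil and monocyte, erythroid and megakaryocyte, cell division, endothelial and stromal, T and NK, B and plasma, mature neutrophil and macrophage genes, of which 1 had no row) and the tests were chosen with earlier results of these data known. Values per library are given for 10 fixed genes and for the 5 lowest p of each contrast, and the other stem cell genes named are the 3 lowest p of each averaged contrast, of which 1 is not reported here. Genes singled out beyond these were chosen after their values were seen. Promoter windows are from RefSeq on GRCm38.p6.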

Additional observations from a re-analysis of the deposited data

Results flagged for a closer look

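Within groups of 4 or 5 libraries, 1 library stood far from the rest of its group for 8 of the 36 genes, 9 cases among 108 groups of values examined. Chance gives about 1 in 20, or 5.4 cases, if values are normally spread, which was not checked. Several cases came from the same library, so they are not independent. In R882H with azacitidine, library 1 was far above the others for Slamf1, at 40.5 against 15.6 to 21.7 CPM, and for Tek, at 47.6 against 22.5 to 28.5 CPM. The same library stood out for Esam, at 99.4 against 48.2 to 61.5 CPM, for Ctnnal1 at 31.8 against 17.6 to 20.7 CPM, and for Fhl1, a LIM-domain protein, at 31.0 against 9.41 to 13.9 CPM. Library 2 of that group was low for Bmi1, at 64.2 against 78.5 to 82.8 CPM, and library 5 for Erg, at 17.9 against 30.8 to 34.9 CPM. In R882H with NaCl, library 2 was low for Esam, at 32.7 against 93.5 to 103 CPM, and for Lmo2, at 756 against 1260 to 1319 CPM. That library also had the highest summed erythroid and megakaryocyte genes, at 10660 CPM, and its part in these values was not tested.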

How the results depend on the processing

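DESeq2 called 1 of the 36 genes, Slamf1, for azacitidine averaged over genotypes, and within libraries numbered 3 and above, a set chosen after the libraries had been seen, edgeR called 6 for azacitidine in R882H and 11 averaged over genotypes. Under every other setting and contrast, 0 were called, and 0 to 0 as each library was left out. The fits within sets of numbers, and all settings for the median, were added after the data had been seen. Over all settings the change took both signs for 27 of the 36 genes for azacitidine in R882H, 14 in WT and 19 averaged over genotypes, and for 30 in the difference between responses. For R882H against WT it did so for 22 with azacitidine, 19 with NaCl and 13 averaged over treatments. Among the 5 genes of lowest p in each contrast, those that turned sign were Tal1 and Cd81. For Tal1, leaving out R882H NaCl 1 and 2 and WT azacitidine 1 gave 0.20 for azacitidine in R882H, 0.0642 for the difference between responses and -0.21 for R882H against WT with NaCl. Within libraries numbered 3 and above the first of these was 0.12, the last was -0.05, and the difference for Cd81 was -0.0043. Within libraries 1 and 2 the median of the 36 was 0.44 for azacitidine in R882H and 0.13 averaged over genotypes. Within libraries numbered 3 and above it was -0.26 for the difference and -0.0191 for R882H against WT with azacitidine. The median difference was -0.16 without the 3 libraries named above, and -0.041 to 0.36 as each library was left out. For azacitidine in R882H and in WT the median was -0.0157 and -0.17 with the replicate block. The cause was not tested.

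Counts of genes called over all genes were 0 to 4 as reported, 0 to 3 with limma-voom, 0 to 6 with no filter, 0 to 14 with a term for numbers 1 and 2, 12 to 161 with DESeq2, 0 to 46 as each library was left out, and 0 to 42 and 1 to 918 within libraries 1 and 2 and libraries numbered 3 and above. With the replicate block edgeR called 0 of the 36 genes and 0 to 3 of all genes per contrast. Same-numbered libraries deviated together, with r over 0.1, in 9 of 21 pairs, and 6 of 16 libraries were closest to one of their own number. The numbers were not taken to pair libraries. Between R882H and WT with NaCl, r was 0.10, 0.34, 0.34 and 0.32 for numbers 1, 2, 3 and 4. These r were not set beside those of pairs with unlike numbers, and what libraries of the same number share was not tested. A fit of the compared groups alone could not be made where a contrast uses all 4 groups. Libraries varied by 40.7% at the common dispersion, which limits the changes that 3 to 5 libraries a group can show.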

Other observations

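A pair of genes outside the 36 separate stem cells from multipotent progenitors inside the LSK gate, and both were picked after their values had been seen, so no test is given. Cd48, a SLAM-family ligand that is absent from the most primitive stem cells, stood at 184, 254, 259.6, 190.4 and 205 CPM in R882H with azacitidine, against 141, 125, 125 and 127 CPM in R882H with NaCl. All 5 azacitidine libraries lay above all 4 NaCl libraries, a layout that 1.09% of all genes tested had. In WT it stood at 274, 336 and 198 CPM with azacitidine, against 316, 295, 149 and 133 CPM with NaCl, where NaCl libraries 1 and 2 were high and libraries 3 and 4 low. Slamf1, the other SLAM marker, also averaged higher with azacitidine in both genotypes.

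Flt3, the receptor that marks multipotent progenitors with lymphoid potential, stood at 553, 486, 728, 583 and 752 CPM in R882H with azacitidine, against 365, 166, 727 and 751 CPM in R882H with NaCl. NaCl libraries 1 and 2 were the lowest of the 9, and NaCl libraries 3 and 4 lay near the top of the azacitidine range. In WT it stood at 606, 432 and 565 CPM with azacitidine, against 461, 629, 798 and 712 CPM with NaCl, which overlapped.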
